A study of Mus musculus with 24 samples.

Results

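Fibroblast growth factor (FGF) signalling was followed through 10 genes, 4 ligands (Fgf8, Fgf10, Fgf15, Fgf17), 3 receptors (Fgfr1, Fgfr2, Fgfr3) and 3 genes that FGF signalling induces (Spry2, Dusp6, Etv5). They were chosen by name from the 22889 gene entries of the deposited table, with earlier results of these data known, and followed in all 24 libraries. The libraries came from mouse embryonic stem cell cultures sorted by FACS into GFP-positive and GFP-negative fractions, 6 of each fraction from each of 2 kinds of culture. Oculomotor cultures were made from Islet1-GFP/NesEPhox2a cells, an Islet1 reporter line that also carries Phox2a under a nestin enhancer active in neural progenitors, and embryoid bodies received 250 nM SAG, a Smoothened agonist that switches on hedgehog signalling, with 100 ng/ml FGF8 protein for 5 days. Spinal cultures were made from Hb9-GFP cells, whose reporter follows the motor neuron gene Mnx1, and received 500 nM SAG with 100 nM retinoic acid over the same 5 days. Only the oculomotor cultures were thus given FGF8, but the cell line, its reporter, the Phox2a transgene, the SAG dose and retinoic acid changed together with it, and their parts in any difference between cultures cannot be told apart. Each fraction was sorted as a bulk sample and sequenced by SMART-seq2, which amplifies poly(A) RNA. The labels do not say whether the 6 replicates were separate cultures, so p values measure only the spread between these libraries.

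FGF ligands bind receptor tyrosine kinases at the cell surface and signal mainly through Ras and the MAP kinases ERK1 and ERK2. ERK activity induces ETS transcription factors such as Etv5 and also genes that dampen the pathway, among them the Sprouty proteins, which act upstream at the receptor and Ras, and Dusp6, a phosphatase that inactivates ERK. In the embryo FGF8 from the isthmus, the border of midbrain and hindbrain, patterns the midbrain in which oculomotor neurons arise, and FGF4 acting through ERK moves embryonic stem cells out of pluripotency.

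Of the 10 genes, Dusp6 and Etv5 carried the largest called differences between fractions, and their promoters are shown for that reason, as RefSeq gives them on GRCm38.p6, from 250 bases before to 50 bases after an annotated transcription start, 5′ to 3′ on the strand of the gene. Capitals mark the 4-letter ETS core GGAA and its complement TTCC, a motif added after the values had been seen. The Dusp6 window lies on chromosome 10 at chr10:99262981-99263280 on the plus strand, and Etv5 has 2 windows on chromosome 16, at chr16:22439521-22439820 and chr16:22438319-22438618 on the minus strand.
Dusp6: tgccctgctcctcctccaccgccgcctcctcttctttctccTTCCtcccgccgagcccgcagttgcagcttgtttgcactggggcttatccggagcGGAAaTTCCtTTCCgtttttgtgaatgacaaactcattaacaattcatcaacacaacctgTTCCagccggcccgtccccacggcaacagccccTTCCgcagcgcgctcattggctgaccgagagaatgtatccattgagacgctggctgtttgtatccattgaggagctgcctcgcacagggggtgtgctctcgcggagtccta
Etv5, first start: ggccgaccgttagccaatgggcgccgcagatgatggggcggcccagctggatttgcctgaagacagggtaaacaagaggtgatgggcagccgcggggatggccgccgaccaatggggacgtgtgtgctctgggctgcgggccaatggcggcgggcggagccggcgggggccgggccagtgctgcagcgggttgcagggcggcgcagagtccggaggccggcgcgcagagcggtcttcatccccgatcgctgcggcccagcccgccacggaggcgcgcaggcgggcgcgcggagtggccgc
Etv5, second start: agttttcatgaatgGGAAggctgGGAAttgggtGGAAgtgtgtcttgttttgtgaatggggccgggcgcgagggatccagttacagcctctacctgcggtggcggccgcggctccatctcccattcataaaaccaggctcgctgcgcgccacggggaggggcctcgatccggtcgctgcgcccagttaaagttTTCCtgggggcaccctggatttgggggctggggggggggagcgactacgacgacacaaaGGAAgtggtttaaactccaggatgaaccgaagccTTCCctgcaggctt
The Dusp6 window held 6 cores, the first Etv5 window 0 and the second 6, against a median of 3 over 32851 promoter windows of the same length, 96.0% of which held at least 1. The longer ETS site CCGGAAGT, searched on both strands, was in 3.89% of all windows and in 0 of the 8 windows of the 6 members with a promoter in the table. AGGTCA, the unit that retinoic acid receptors bind, was in 16.3% of all windows and in 1 of the 8, that of Spry2, while the direct repeat of AGGTCA with 5 bases between the copies was in 0.00913% of all windows and in 0 of the 8. The first Etv5 window was rich in CpG, with 37 CpG and 74.0% GC, beside medians of 7 and 52.7% over all windows.

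Sequencing depth, read off the smallest RPKM increments, ran from 752529 to 4642207 reads in replicates 1 to 4 and from 4822576 to 7675428 in replicates 5 and 6. Motor neuron genes marked the sorted fractions: Isl1 lay between 141 and 369 RPKM in GFP-positive oculomotor libraries and between 0.696 and 1.87 RPKM in GFP-negative ones, and Mnx1 between 43.1 and 149 RPKM in GFP-positive spinal libraries. Both spinal libraries numbered 4 stood apart. The GFP-positive one held Isl1 at 7.63 RPKM, below the 50.4 to 123 RPKM of the other 5, with Nanog at 156 RPKM, and the GFP-negative one held Mnx1 at 69.4 RPKM, against 0.189 to 4.72 RPKM in its group, with Nanog at 185 RPKM. In spinal GFP-negative library 2, single gene models held up to 46.7% of the summed RPKM, which lowers every other value in it. Several results that rest on the spinal pair 4, though not all, are given with and without it.

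Of the 4 ligands, Fgf15 was called higher in GFP-negative cells of oculomotor cultures than of spinal cultures. Fgf15, the mouse counterpart of human FGF19, ran from 0.678 to 43.3 RPKM (median 9.49) in GFP-negative and from 0 to 16.3 RPKM (median 2.63) in GFP-positive oculomotor libraries. In spinal libraries it reached at most 0.772 RPKM in the GFP-negative and 0.467 RPKM in the GFP-positive fraction, so only low oculomotor libraries overlapped with spinal ones. The GFP-negative difference was 2.87 ± 0.65 (SE) on the log2(RPKM + 1) scale (limma, adjusted p = 0.0296), and it was 2.92 without the spinal pair 4 (adjusted p = 0.0238). Between GFP-positive fractions the difference was 1.82 ± 0.56 with adjusted p = 0.231. The GFP-negative call was lost without OMN_neg replicate 1, 2 or 4 or without SC_neg replicate 1, 3, 5 or 6, with adjusted p of up to 0.0815. It was 1 member of 10, where 0.96% of the 22179 genes tested were called in either direction and 0.41% were called higher in oculomotor cells. The paper had already reported Fgf15 and Fgf10 as enriched in its midbrain-specified cultures, from these same data. The call of Fgf15 is therefore not independent of that report, and its share of the members cannot be read against that of all genes. Markers of other cells moved in the same comparison. Of 8 pluripotency markers Tdgf1 was called higher in GFP-negative oculomotor cells (4.00 ± 0.84 (SE), adjusted p = 0.0178) and 7 had positive differences. Of 8 endoderm markers Gata4, Gata6 and Sox17 were called lower (-2.20, -2.68 and -1.86). Of 8 markers listed for astrocytes and oligodendrocytes 1 was called, Pdgfra, also lower (-1.75), and 2 had positive differences. Of 10 neuronal markers 0 were called (limma) and 9 had negative differences, each at an unadjusted p under 0.05, and their summed level was 21.7 to 74.5 RPKM in oculomotor and 78.6 to 333 RPKM in spinal GFP-negative libraries. The part of these cells in the difference of Fgf15 was not tested. In bulk libraries like these, fewer cells that express a gene and less RNA per cell cannot be told apart.

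Fgf8, the isthmic ligand whose protein was added to the oculomotor cultures, was read at low levels from the cells' own RNA. It ran from 1.04 to 4.94 RPKM (median 1.38) in all 6 GFP-negative oculomotor libraries, which is about 5.2 to 7.8 reads per library by the depth estimate. Its level was 0 in 3 of 6 GFP-positive oculomotor libraries and 5.24 RPKM in the library numbered 4. In spinal cultures it was listed at 0 in 6 of 6 GFP-positive and in 4 of 6 GFP-negative libraries, with a highest value of 0.875 RPKM. The GFP-negative oculomotor libraries thus all lay above the GFP-negative spinal ones, as did those of 1.27% of all genes in one direction or the other, and Fgf8 was the 1 member of 10 whose groups did not overlap there. The test of this difference, 1.29 ± 0.35 (SE), gave adjusted p = 0.076, above the threshold of 0.05, and adjusted p ran from 0.0132 to 0.459 over 10 alternatives, of which 5 called it. With 1 library left out, 0 of 12 fits called it. At a handful of reads per library, absence from a library was not distinguishable from a low level.

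Fgf17, a relative of Fgf8 expressed around the same embryonic border, lay between 0.439 and 7.35 RPKM (median 2.32) in GFP-negative oculomotor libraries and was at 0 in 4 of 6 GFP-positive ones. Within spinal cultures one GFP-positive library, number 2, stood at 6.88 RPKM and the next at 0.656 RPKM. Fgf17 differed by 1.55 ± 0.43 (SE) between GFP-negative fractions (adjusted p = 0.0956), and by 1.71 without the spinal pair 4, where it was called (adjusted p = 0.041). Without SC_neg replicate 4 alone it was called too, at adjusted p = 0.0486.

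Fgf10, which signals mainly through the Fgfr2 form of epithelia, was the ligand with its higher median in GFP-positive oculomotor cells. It ran from 0 to 8.9 RPKM (median 2.64) there and from 0.135 to 2.05 RPKM (median 0.665) in the GFP-negative oculomotor fraction. In GFP-positive spinal libraries it was listed at 0 in 5 of 6 and at 0.085 RPKM in the other one, while 4 of 6 GFP-negative spinal libraries held between 0.385 and 0.655 RPKM. The GFP-positive groups overlapped only through OMN_pos replicate 3, which was at 0. Between GFP-positive fractions the difference was 1.76 ± 0.46 (SE) with adjusted p = 0.136, and without OMN_pos replicate 3 Fgf10 passed the threshold with adjusted p = 0.0358. It was also called with an offset of 0.1 RPKM, with sample quality weights and in a fit of all 24 libraries, and adjusted p over all alternatives ran from 0.0137 to 0.507. Fgf10 differed more in replicates 5 and 6, by 2.97, than in replicates 1 to 4, by 1.15.

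**Figure D1:**
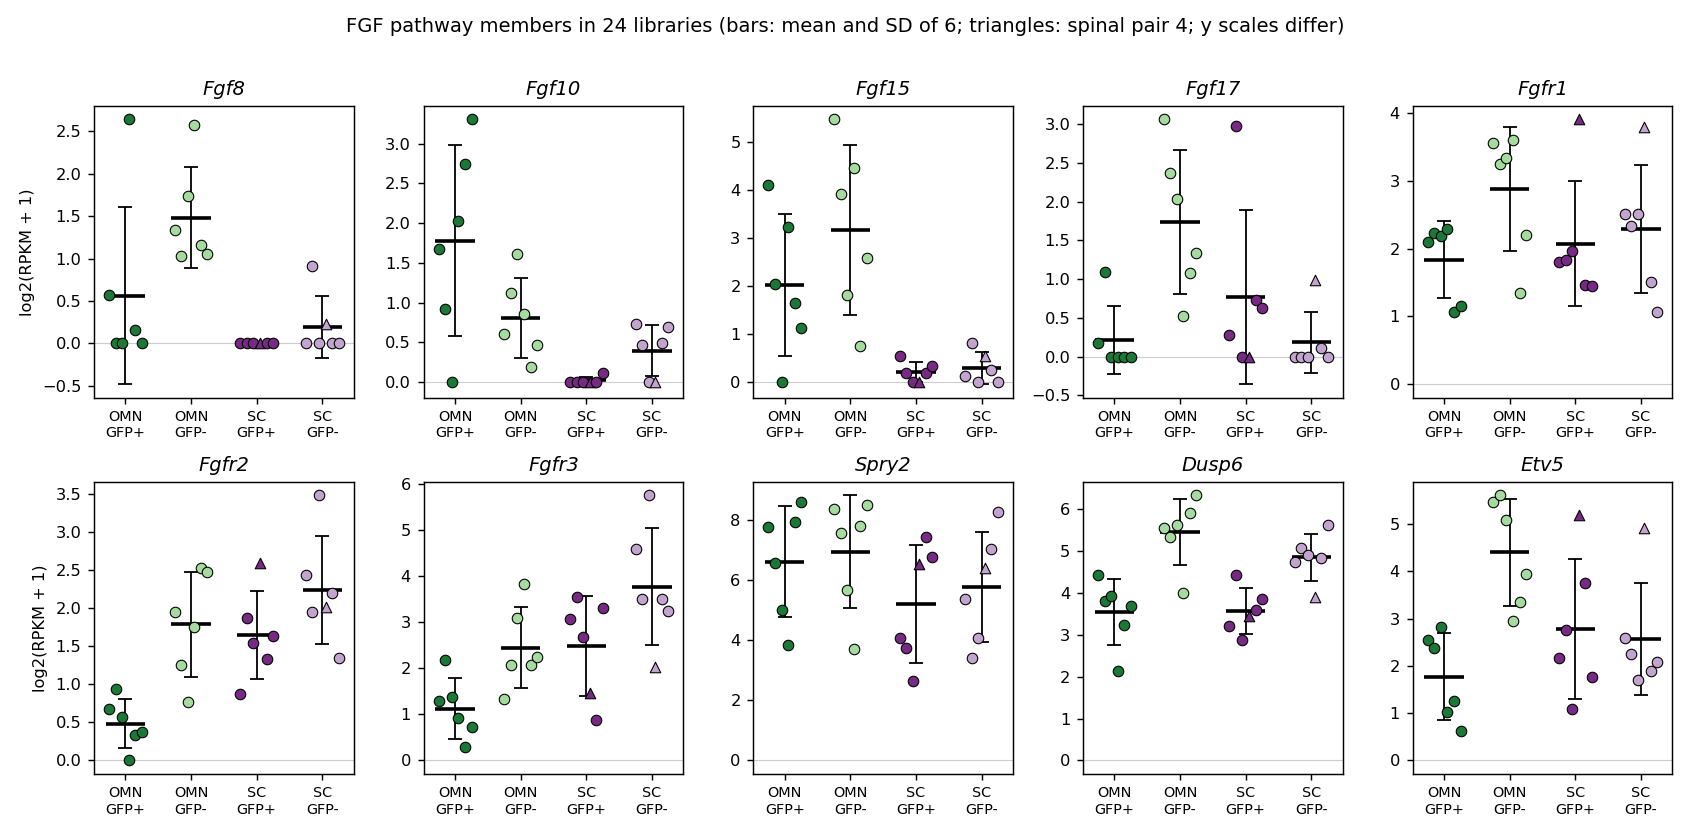
Level of each of the 10 genes in the 24 libraries as log2(RPKM + 1), with 1 point per library, lines and bars for the mean and SD of 6, and triangles for the spinal pair 4. Fgf8 and Fgf15 sit near 0 in both spinal groups, where they reach at most 0.875 and 0.772 RPKM, Etv5 and Fgfr1 are highest of their spinal groups in pair 4, and Spry2 is spread widely in every group.

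The comparison of the GFP-positive fractions asks how the sorted oculomotor and spinal motor neurons differ, and it called 0 of 10 members (limma, 19240 genes tested, of which 0.603% were called). At an unadjusted p under 0.05 there were 4, Fgf10 and Fgf15 with positive and Fgfr2 and Fgfr3 with negative differences, and the median over the 10 was -0.13, beside -0.04 for all genes tested. The groups overlapped for all 10 members, whereas 1.43% of all genes had groups that did not overlap.

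Fgfr1, the receptor most widely expressed in the nervous system, was read in all 24 libraries. It lay between 1.09 and 3.87 RPKM (median 3.43) in GFP-positive oculomotor libraries and between 1.74 and 14.02 RPKM (median 2.53) in GFP-positive spinal ones. The top of the spinal range was library 4, and the other 5 ended at 2.93 RPKM. The difference of -0.23 (95% interval -1.22 to 0.75) turned to 0.13 without the spinal pair 4. In the GFP-negative fractions Fgfr1 ran from 1.53 to 11.1 RPKM (median 8.83) in oculomotor and from 1.08 to 12.9 RPKM (median 4.39) in spinal libraries. Replicates 5 and 6 held the lowest values in each of the 4 groups, between 1.08 and 3.61 RPKM.

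Fgfr2 and Fgfr3, receptors found on neural progenitors and glia, had lower values in GFP-positive oculomotor than in GFP-positive spinal libraries without passing the test. Fgfr2 ran from 0 to 0.92 RPKM (median 0.393) in the former and from 0.829 to 5.06 RPKM (median 2.01) in the latter, a difference of -1.16 ± 0.31 (SE, adjusted p = 0.147). Only the highest oculomotor library reached into the spinal range. Fgfr3 ran from 0.219 to 3.57 RPKM (median 1.17) and from 0.831 to 10.8 RPKM (median 6.42), a difference of -1.37 ± 0.51 with adjusted p = 0.351. For both genes the sign was the same in replicates 1 to 4 (-1.17 and -1.25) and in replicates 5 and 6 (-1.14 and -1.60).

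Fgfr3 was highest in GFP-negative spinal cells, at 3.06 to 53.1 RPKM (median 10.4), and ran from 1.54 to 13.4 RPKM (median 3.5) in GFP-negative oculomotor cells. Its lowest value in that spinal group was library 4 and the other 5 began at 8.56 RPKM. The difference of -1.33 ± 0.56 (SE) had adjusted p = 0.347, and it was -1.68 without the spinal pair 4 (adjusted p = 0.104). Fgfr2 lay between 1.54 and 10.2 RPKM in this spinal group and between 0.71 and 4.78 RPKM in the oculomotor one, and its difference of -0.45 had a 95% interval from -1.20 to 0.30. By group medians the order of the receptors was Fgfr1, Fgfr3 and Fgfr2 in both oculomotor fractions and Fgfr3, Fgfr1 and Fgfr2 in both spinal fractions, and the ranges of neighbours in this order overlapped in every group.

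Spry2, a Sprouty inhibitor of receptor signalling, had the highest median of the 10 genes per unit length in all 4 groups, above the medians of 96.2% to 98.5% of all entries. Its values rose and fell together in same-numbered fractions of a culture, though some pairs lay far apart, such as spinal pairs 1, 3 and 6. In oculomotor libraries 1 to 6 it stood at 217, 94.4, 31.1, 13.2, 243 and 385 RPKM in the GFP-positive fraction. The same-numbered GFP-negative libraries held 327, 189, 50.2, 12.1, 220 and 364 RPKM. The order of the 6 was therefore nearly the same in both fractions of the culture, with the lowest value in pair 4 and the highest in pair 6. Spinal libraries 1 to 6 stood at 15.7, 12.4, 5.26, 92.3, 172 and 108 RPKM in the GFP-positive fraction (median 54.0). The GFP-negative ones held 40.1, 9.63, 15.9, 84.4, 129 and 310 RPKM (median 62.2). Across cultures, libraries 5 and 6 stood above the others in GFP-positive oculomotor and in both spinal groups. In GFP-negative oculomotor libraries number 6 was highest, and number 5 was below 6 and 1. Number 4 was the lowest of the oculomotor pairs, whereas the spinal pair 4, at 92.3 and 84.4 RPKM, was above spinal pairs 1 to 3. Differences between cultures were 1.42 (95% interval -0.66 to 3.50) in GFP-positive and 1.18 (-0.92 to 3.27) in GFP-negative cells, too wide to place Spry2 above or below.

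Dusp6, the ERK phosphatase, had the second highest median in every group. It ran from 3.39 to 20.6 RPKM (median 12.3) in GFP-positive oculomotor and from 6.27 to 20.5 RPKM (median 10.4) in GFP-positive spinal libraries. The sorted motor neurons of the 2 cultures therefore covered nearly the same range of Dusp6, with a difference of -0.03 and a 95% interval from -0.86 to 0.80. The sign turned to 0.01 under quantile normalization. GFP-negative levels were 14.9 to 78.7 RPKM (median 46.5) in oculomotor and 13.97 to 47.8 RPKM (median 28.0) in spinal cultures, a difference of 0.61 ± 0.39 (SE, adjusted p = 0.576). The lowest of these spinal values was library 4, and the other 5 began at 25.5 RPKM.

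Etv5, the ETS factor, was high in GFP-negative oculomotor libraries, from 6.68 to 47.5 RPKM (median 23.5). The GFP-negative spinal libraries held 2.27 to 5.01 RPKM in 5 libraries and 29.0 RPKM in library 4. The difference of 1.83 ± 0.66 (SE) had adjusted p = 0.242 with all libraries and rose to 2.29 ± 0.53 (adjusted p = 0.0198) without the spinal pair 4, so that the call rests on leaving out that pair. Without it 2.67% of all genes were called. In GFP-positive libraries Etv5 ran from 0.529 to 6.1 RPKM in oculomotor and from 1.13 to 35.2 RPKM in spinal cultures, again with library 4 at the top, and the difference of -1.01 had a 95% interval from -2.43 to 0.40.

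**Figure D2:**
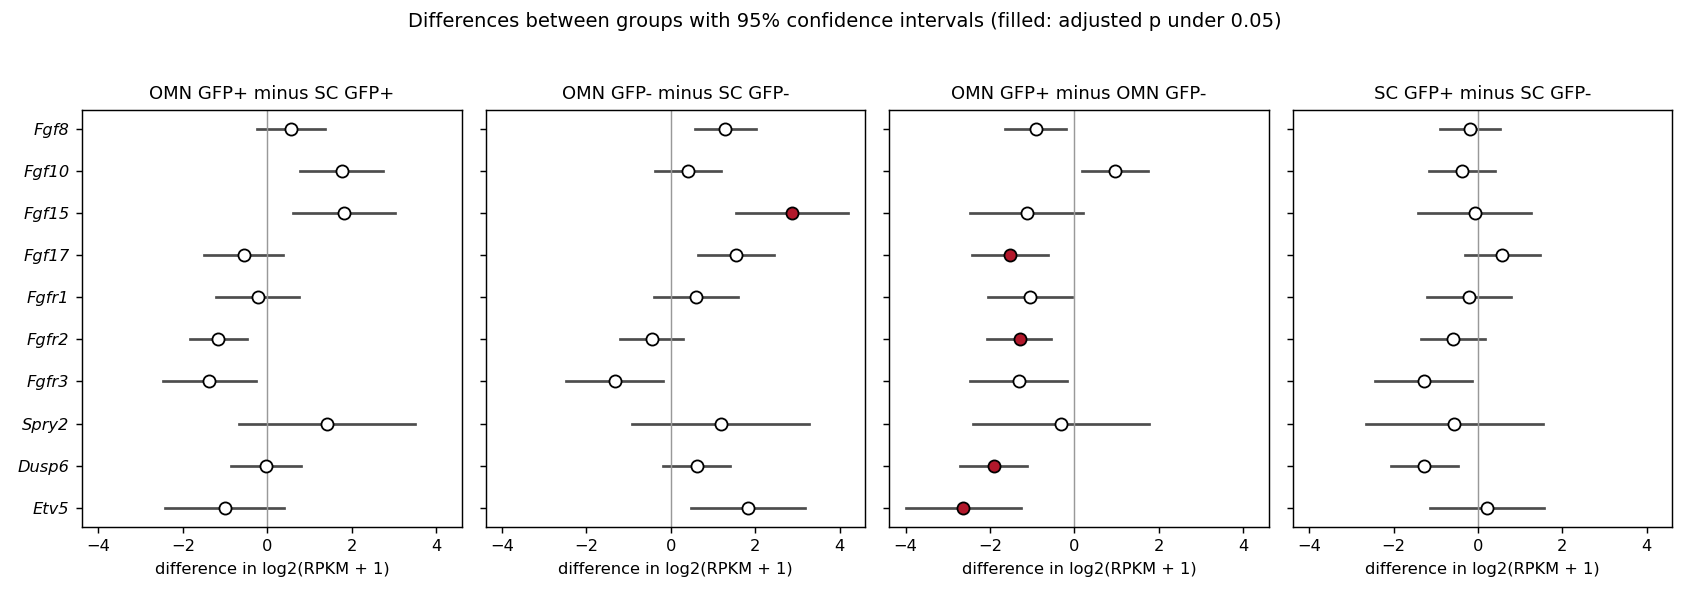
Differences of the group means of log2(RPKM + 1) for the 10 genes in 4 comparisons, with 95% confidence intervals and filled points for adjusted p under 0.05. Fgf15 is the filled point between GFP-negative fractions, and Fgf17, Fgfr2, Dusp6 and Etv5, all negative, are filled between the oculomotor fractions.

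Most calls lay between the sorted fractions of the oculomotor cultures. Of the 10 members 4 were called, all of them lower in the GFP-positive fraction: Etv5, Dusp6, Fgf17 and Fgfr2. Among all 22179 genes tested 6.15% were called in this comparison and 2.34% were called lower. The median difference of the 10 members was -1.22 and that of all genes 0.00, and 9 of the 10 differences were negative, Fgf10 being the exception at 0.97 ± 0.38 (SE, adjusted p = 0.148). Same-numbered GFP-positive and GFP-negative libraries deviated together from their group means, and a fit with the pair as a block called 7 of 10, adding Fgf15 (adjusted p = 0.0298), Fgf8 (adjusted p = 0.00613) and Fgfr1 (adjusted p = 0.00368), all lower in GFP-positive cells. That fit called 16.4% of all genes, and 8.21% lower.

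Etv5 fell by 2.63 on the log2 scale (SE 0.66, adjusted p = 0.0157), from a mean of 25.6 ± 17.9 RPKM (SD, n = 6) in GFP-negative to 3.01 ± 2.32 RPKM in GFP-positive cells. Its groups did not overlap, which held for 1 member of 10 and for 6.52% of all genes, and it was lower in 6 of 6 pairs. Dusp6 fell by 1.91 (SE 0.39, adjusted p = 0.00296), from 47.4 ± 21.2 to 11.9 ± 5.77 RPKM, and was lower in 6 of 6 pairs as well. Both calls held in all 12 fits that left out 1 library, with adjusted p of up to 0.0458 for Etv5 and 0.0109 for Dusp6. Neither was called in the fit of replicates 1 to 4 only, where the differences were -2.58 and -1.54 with adjusted p of 0.143 and 0.139. In replicates 5 and 6 the differences were -2.72 and -2.66.

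Fgfr2 fell by 1.30 (SE 0.36, adjusted p = 0.0317) and Fgf17 by 1.52 (SE 0.43, adjusted p = 0.0359), each lower in 6 of 6 pairs. These calls were less firm. The call of Fgfr2 was lost without OMN_pos replicate 3, 4, 5 or 6 or OMN_neg replicate 1, 4, 5 or 6, with adjusted p of up to 0.0854. Fgf17 lost its call without OMN_pos replicate 1, 3, 4, 5 or 6 or OMN_neg replicate 1, 2 or 3, with adjusted p of up to 0.0979. Either gene also missed the threshold when RPKM were rescaled without the 10 highest genes, at adjusted p of 0.0582 and 0.0727. Fgf8 was called in this comparison without OMN_pos replicate 4 (adjusted p = 0.000668), and Fgf10 without OMN_pos replicate 3 (adjusted p = 0.0161).

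The same comparison in spinal cultures called 0 of 10 members (limma, 1.23% of all genes called), with 2 at an unadjusted p under 0.05, Dusp6 and Fgfr3. Groups of GFP-positive and GFP-negative spinal libraries overlapped for all 10, and 0.469% of all genes had groups that did not. Dusp6 was lower in GFP-positive cells in 6 of 6 spinal pairs, with means of 11.5 ± 5.00 and 29.3 ± 11.0 RPKM (SD, n = 6) and a difference of -1.28 ± 0.39 (SE, adjusted p = 0.123). With the pair as a block it was called, at adjusted p = 0.0179, in a fit that called 2.93% of all genes. Fgfr3 differed by -1.28 ± 0.56 with adjusted p = 0.40, lower in 4 of 6 pairs. For Etv5, 3 of 6 spinal pairs were higher and 3 lower, with a difference of 0.21 and a 95% interval from -1.14 to 1.57.

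**Figure D3:**
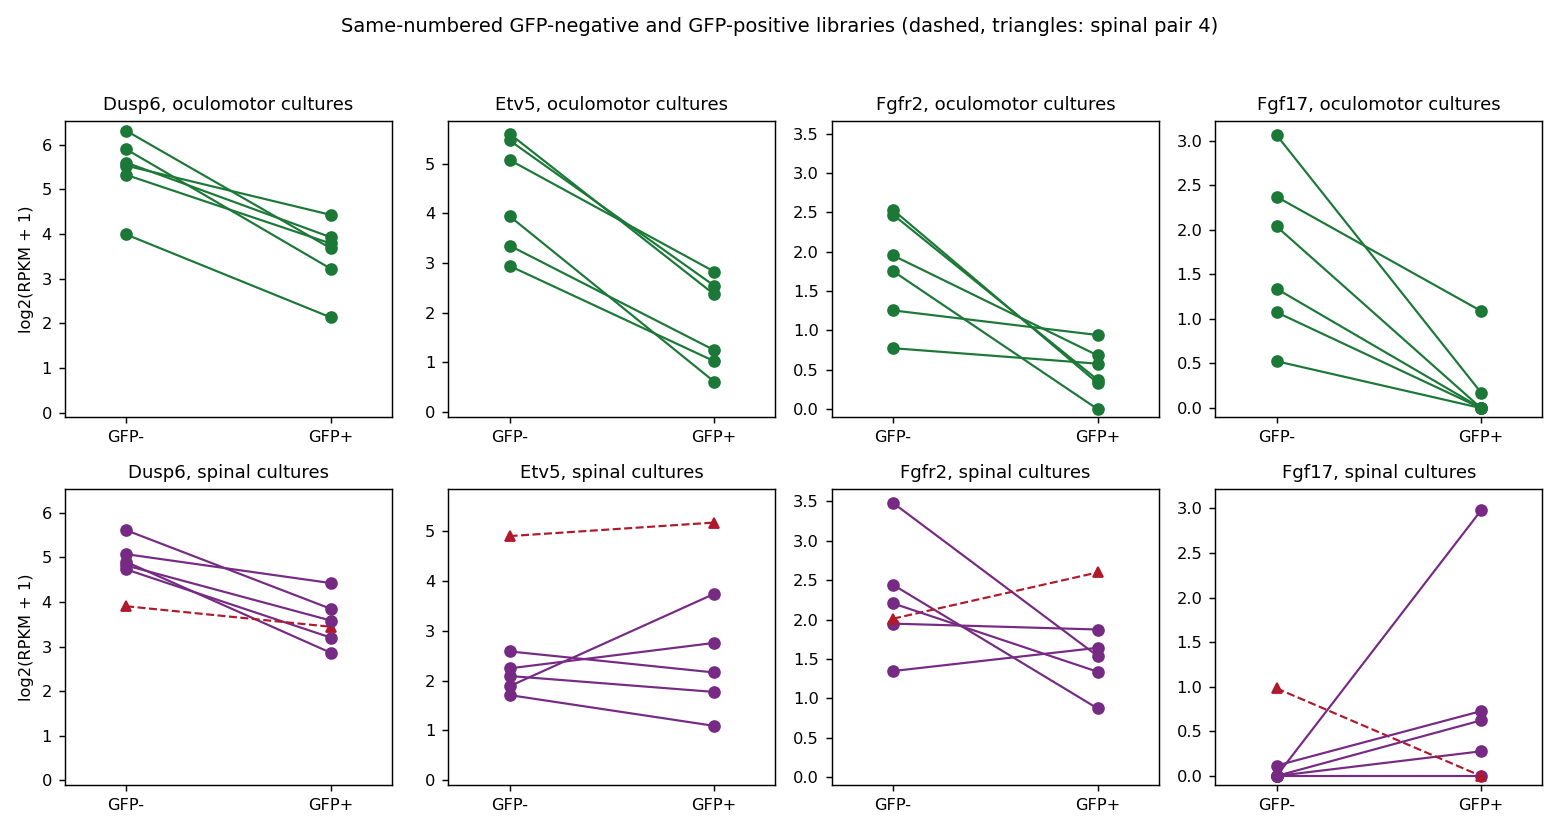
Same-numbered GFP-negative and GFP-positive libraries joined by lines, as log2(RPKM + 1), for the 4 genes called between the oculomotor fractions, with oculomotor cultures above and spinal cultures below. Dusp6 is lower in GFP-positive cells in 6 of 6 pairs of both cultures, Etv5 in 6 of 6 oculomotor and 3 of 6 spinal pairs, and the spinal pair 4 is dashed.

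Whether the difference between fractions was itself different between cultures was tested as an interaction, which called 0 of 10 members (limma, 0.32% of all genes called), with 3 at an unadjusted p under 0.05. These were Fgf17 with -2.11 ± 0.61 (SE, adjusted p = 0.193), Etv5 with -2.84 ± 0.93 (adjusted p = 0.309) and Fgf10 with 1.35 ± 0.54 (adjusted p = 0.501). Etv5 passed the threshold with the pairs as a block (adjusted p = 0.00508, with 2.04% of all genes called) and had adjusted p = 0.0831 without the spinal pair 4. The interaction of Dusp6 was -0.64 with a 95% interval from -1.76 to 0.49, so a difference of the same size in both cultures lay inside the interval.

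Markers of other cells moved with these differences. Of 8 pluripotency markers 6 were called lower in GFP-positive than in GFP-negative oculomotor cells, and their summed level ran from 1.01 to 265 RPKM and from 730 to 9880 RPKM in these fractions. In spinal cultures the sums were 15.6 to 12400 RPKM in GFP-positive and 109 to 5990 RPKM in GFP-negative libraries. The highest sums were mostly the single gene Dppa5a. It reached 246 RPKM in GFP-positive and 9810 RPKM in GFP-negative oculomotor libraries. In spinal libraries it reached 12300 RPKM in a GFP-positive one other than number 4, and 5430 RPKM in GFP-negative library 4. Of 10 neural progenitor markers 2 were called lower in GFP-positive oculomotor cells (summed level 129 to 499 RPKM against 199 to 483 RPKM) and of 8 proliferation markers 4 (71.3 to 346 RPKM against 237 to 576 RPKM). Of 10 neuronal markers 10, and of 8 motor neuron markers 6, were called higher. Endoderm markers summed to 22.2 to 55.2 RPKM in GFP-negative and 1.89 to 14.1 RPKM in GFP-positive oculomotor libraries, with Afp and Cer1 at 0 throughout the latter. Most of the GFP-negative oculomotor sum, by medians, was the single gene Foxa2 (median 29.5 RPKM, beside 44.8 RPKM for the sum). Gata4, Gata6 and Sox17 had medians of 1.01, 1.23 and 0.563 RPKM there, and Ttr and Apoa1 of 5.45 and 1.75 RPKM. In GFP-negative spinal libraries the endoderm sum reached 333 RPKM, and Ttr alone reached 218 RPKM. Markers of mesoderm, endothelium and fibroblasts and those of astrocytes and oligodendrocytes stayed at sums of at most 12.1 and 25.5 RPKM in every group. The part of these other cells in the FGF results was not tested.

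Etv5 was high in several of the libraries with high Nanog, the pluripotency factor, though not all pluripotency markers varied in this way. The 6 highest Etv5 values, from 14.4 to 47.5 RPKM, came from 4 GFP-negative oculomotor libraries, a group with Nanog between 16.5 and 85.4 RPKM, and from the spinal pair 4, with Nanog at 156 and 185 RPKM. Spinal GFP-positive library 5, with Nanog at 40.5 RPKM, held Etv5 at 12.4 RPKM, the second highest of its group. GFP-positive oculomotor libraries had Nanog of at most 3.17 RPKM and Etv5 of at most 6.1 RPKM. Over the 24 libraries, which share groups, sort fractions and depth, the genes most like Etv5 by Pearson correlation of log2(RPKM + 1), of 10851 compared, included Esrrb (0.91) and Chchd10 (0.90). Esrrb is itself a pluripotency factor. Klf4, another of the 8 markers, stood at 10.6 to 60.7 RPKM in the 5 GFP-negative spinal libraries other than number 4, in which Etv5 was at most 5.01 RPKM. Pou5f1 was highest of the GFP-negative oculomotor group in library 4, at 49.1 RPKM, where Etv5 was lowest of that group (6.68 RPKM), and in library 3 it stood at 5.9 RPKM beside Etv5 at 32.7 RPKM.

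**Figure D4:**
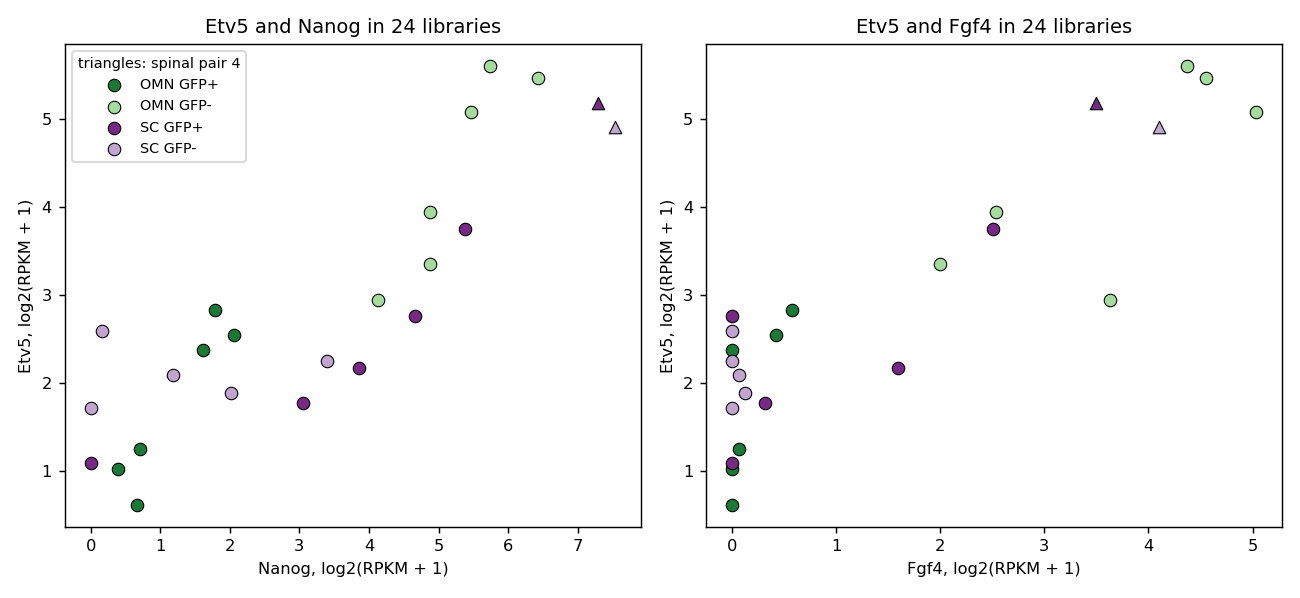
Etv5 against Nanog (left) and against Fgf4 (right) in the 24 libraries, all as log2(RPKM + 1), with 1 point per library coloured by group and triangles for the spinal pair 4. GFP-positive oculomotor libraries lie low on both axes (Etv5 at most 6.1 RPKM), and the spinal pair 4 lies high (Etv5 at 35.2 and 29.0 RPKM). GFP-negative oculomotor libraries spread widely, with Etv5 from 6.68 to 47.5 RPKM. The highest of them lie above the spinal pair 4 in Etv5, and the lower ones below GFP-positive spinal library 5 (12.4 RPKM).

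The other members differed in which genes they resembled, by the same measure over the same 24 libraries. Fgf15 was most like Map7d3 (0.87), Trh (0.82) and Cipc (0.79), and Trh, the thyrotropin-releasing hormone gene, had a median of 66.6 RPKM in GFP-negative oculomotor libraries and medians of at most 1.14 RPKM in the other groups. Fgfr1 was most like Sf3b3 (0.93), Rbpms2 (0.92) and Ybx3 (0.91). Fgfr3 was most like Vit (0.90), St5 (0.90) and Rfx4 (0.86), the last a transcription factor of neural progenitors with its highest median, 25.9 RPKM, in GFP-negative spinal cells. Dusp6 resembled Pi4k2b (0.87), Bcar3 (0.83) and Acot13 (0.83). For Spry2 the most similar were Mrpl42 (0.91), Fkbp3 (0.90) and Ndufb4 (0.90), genes read in every group with medians of 32.6 RPKM or more.

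Other genes of the pathway were counted in 4 lists of 65 genes in all, of which 60 were in the table. Between GFP-positive fractions 0 of 59 tested were called (limma, 0.603% of all genes called), with 8 at an unadjusted p under 0.05. Between GFP-negative fractions 2 of 60 were called, both higher in oculomotor cells, beside 0.41% of all genes called higher. Within oculomotor cultures 5 of 60 were called higher and 6 lower in the GFP-positive fraction. Of all genes 6.15% were called there, and 2.34% lower. Within spinal cultures 1 was called lower, and 1.23% of all genes were called in either direction. Their median differences lay between -0.04 and 0.00 in these 4 comparisons, as did those of all genes.

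Among 14 other FGF genes, 2 were called higher and 2 lower in GFP-positive than in GFP-negative oculomotor cells. Fgf18, a secreted ligand of the Fgf8 subfamily, ran from 7.26 to 41.7 RPKM (median 13.4) in the GFP-positive fraction and from 0 to 1.45 RPKM in the GFP-negative one, without overlap (difference 3.30 ± 0.44 (SE), adjusted p = 3.41e-05). GFP-positive spinal libraries held 0.932 to 7.79 RPKM of it, and the difference of 1.88 ± 0.49 between GFP-positive fractions missed the threshold (adjusted p = 0.136). Sorted oculomotor neurons thus read Fgf18 above all 4 ligand members by median. Fgf13, an intracellular FGF homologue that binds sodium channels, rose by 2.14 ± 0.45 (adjusted p = 0.00445), from 0.857 to 2.0 RPKM in GFP-negative to 3.4 to 19.1 RPKM in GFP-positive cells of oculomotor cultures. In spinal cultures Fgf13 ran from 1.18 to 10.9 RPKM (median 3.01) in GFP-positive and from 0 to 3.6 RPKM (median 0.687) in GFP-negative libraries.

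Fgf4, the autocrine ligand of embryonic stem cells, went the other way. It ran from 2.99 to 31.8 RPKM (median 15.5) in GFP-negative oculomotor libraries and to at most 0.489 RPKM in GFP-positive ones, a difference of -3.51 ± 0.70 (SE, adjusted p = 0.00266). The GFP-negative fractions differed by 2.97 ± 0.70 (adjusted p = 0.0389), and by 3.65 without the spinal pair 4 (adjusted p = 0.000122), in which Fgf4 stood at 10.3 and 16.2 RPKM. Fgf5, a ligand of primed pluripotent cells, fell by 1.94 (SE 0.55, adjusted p = 0.0336) from GFP-negative to GFP-positive oculomotor cells, and its GFP-negative libraries spread from 0.249 to 38.0 RPKM. Fgf11 and Fgf12, the most abundant uncalled genes of the list, had their highest medians in GFP-positive oculomotor cells, at 4.26 and 1.49 RPKM. Their medians in GFP-positive spinal cells were 2.13 and 1.43 RPKM. The highest values were 11.2 and 8.12 RPKM in these spinal libraries and 7.67 and 7.0 RPKM in the oculomotor ones.

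**Figure D5:**
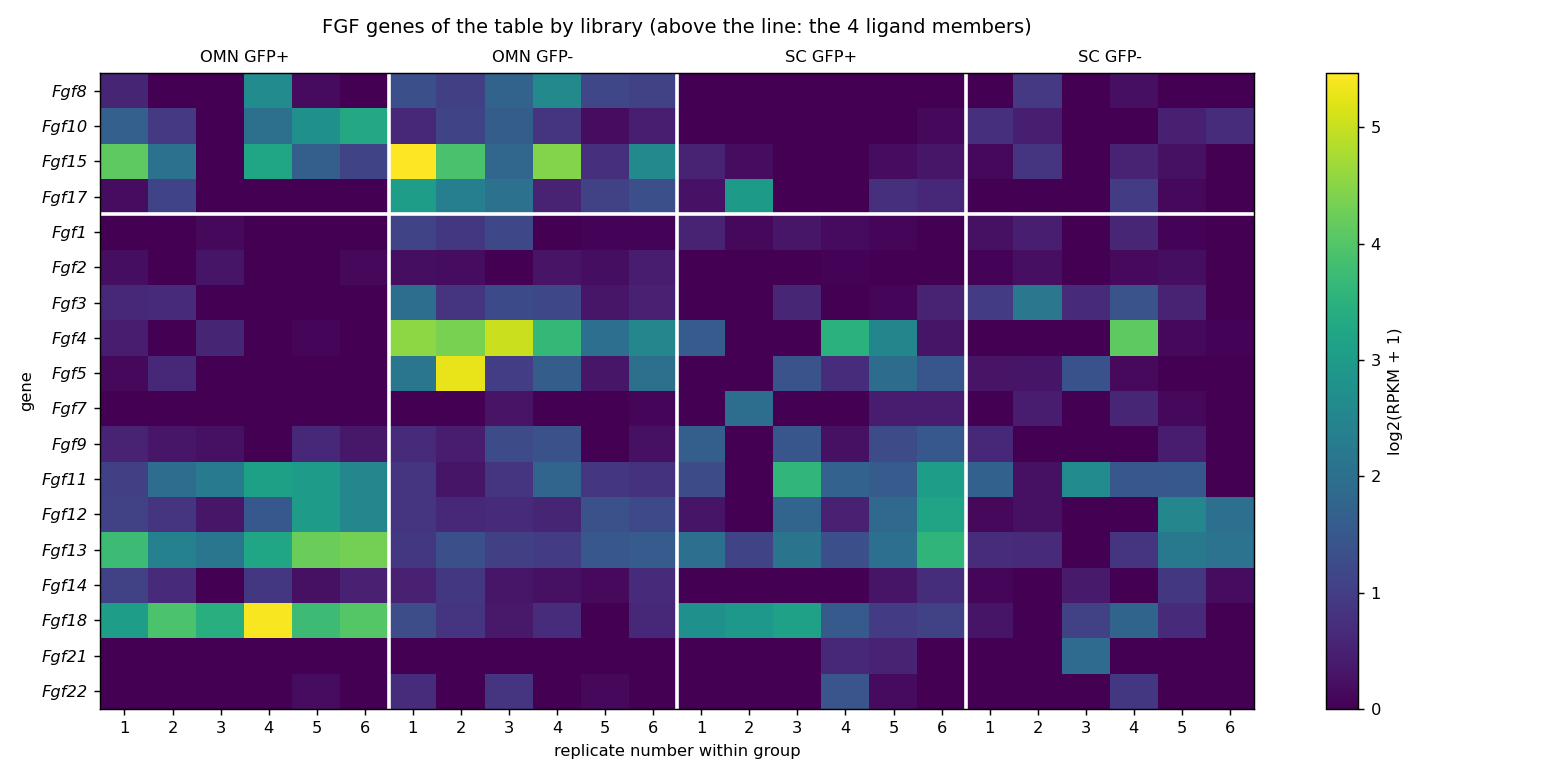
Level of the 18 FGF genes of the table in each of the 24 libraries as log2(RPKM + 1), with the 4 ligand members above the white line. Fgf18 and Fgf13 are bright in GFP-positive oculomotor libraries (7.26 to 41.7 and 3.4 to 19.1 RPKM), Fgf4 in GFP-negative oculomotor libraries and in the spinal pair 4. GFP-positive spinal libraries reach 7.79 RPKM of Fgf18 and 10.9 RPKM of Fgf13.

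Of 13 receptors and cofactors 2 were called higher and 2 lower in GFP-positive oculomotor cells. Ncam1, a neural adhesion molecule that can bind FGF receptors, rose by 4.04 ± 0.56 (SE, adjusted p = 5.46e-05), from 1.72 to 11.5 RPKM to 58.1 to 133 RPKM (median 115). In spinal cultures Ncam1 ran from 13.4 to 265 RPKM (median 142) in GFP-positive and from 9.34 to 75.3 RPKM (median 29.4) in GFP-negative libraries. Between oculomotor fractions Flrt1, a transmembrane protein that binds FGF receptors, rose by 1.40 ± 0.28 (adjusted p = 0.00252). Fgfbp1, a carrier that frees FGFs from the matrix, fell by 3.27 (SE 0.49, adjusted p = 0.000149) and was also called between GFP-negative fractions (2.74 ± 0.49, adjusted p = 0.0049) and for the interaction (-3.23 ± 0.70, adjusted p = 0.039). Its relative Fgfbp3 fell by 1.75 (SE 0.46, adjusted p = 0.0233). Flrt3 was the gene called within spinal cultures, lower in GFP-positive cells by 2.86 ± 0.66 (adjusted p = 0.0256), with 1.4 to 119 RPKM in the GFP-negative fraction. The 1.4 RPKM was library 4, and the other 5 began at 25.1 RPKM. Sdc1 and Fgfrl1, the most abundant uncalled genes of this list, had group medians from 4.05 to 9.43 RPKM and from 2.64 to 9.36 RPKM.

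Of 17 genes that carry the signal inside the cell, 1 was called between oculomotor fractions, the receptor adaptor Frs3, higher in GFP-positive cells by 1.06 ± 0.31 (SE, adjusted p = 0.0412). Of the 17 differences 14 were positive, with a median of 0.41 beside 0.00 for all genes, and 3 had an unadjusted p under 0.05. Nras and Mapk3, the latter encoding ERK1, had the highest means of the uncalled genes, with group medians of 52.3 to 97.2 RPKM and 16.2 to 61.3 RPKM. Mapk3 was higher in GFP-positive cells in 6 of 6 oculomotor pairs, with a 95% interval of the difference from -0.35 to 2.75. Among 16 other feedback and target genes 2 were called, both lower in GFP-positive oculomotor cells: Spred1, an inhibitor of Ras signalling related to the Sprouty proteins, by 1.53 (SE 0.43, adjusted p = 0.0332) and Etv1, an ETS factor related to Etv5, by 1.41 (SE 0.37, adjusted p = 0.023). Spred1 had medians of 13.8 RPKM in GFP-negative and 3.07 RPKM in GFP-positive oculomotor cells, and Etv1 of 3.2 and 0.525 RPKM. The immediate early genes Ier2 and Fos were not called and had medians of 33.0 to 60.1 RPKM and 18.6 to 40.9 RPKM over the groups.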

How the data were processed

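The authors mapped the reads of the 24 mouse libraries to mm10 (GRCm38) with HISAT2 2.0.3 and used rpkmforgenes to turn them into RPKM, read numbers scaled to gene length and to the mapped reads of the library. The deposited table gives RPKM only, without counts. They left out samples with few mapped reads and compared groups with DESeq2 1.12.4, per the submitters' processing notes and the paper, on counts that were not used here. The gene annotation behind the RPKM is not given in the sources used here. SMART-seq2 libraries carry no molecular identifiers, and an RPKM depends on what the highest genes of a library take.

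Here log2(RPKM + 1) was fitted with limma 3.58.1 in R 4.3.3 (moderated variances with a mean trend), after leaving out genes that were above 0 in fewer than 2 of the libraries in the fit, with Benjamini-Hochberg adjustment over all genes tested and a threshold of 0.05. GFP-positive fractions were compared in a fit of their 12 libraries and all other comparisons in a fit of all 24 in 4 groups. Near or under 1 RPKM, the offset makes differences look smaller. Summaries and figures were made with pandas 2.3.3, numpy 2.4.6 and matplotlib 3.10.9 under Python 3.11.15. The fits were tested on simulated data, in which the size and direction of changes were recovered. False calls came out slightly more often than the nominal level, and most small changes were missed. The simulated libraries were independent, and only genes with a mean log2(RPKM + 1) above 1 were changed. The test therefore does not cover libraries that deviate together, or genes near 0. Deviations from the group means correlated in 6 of 6 same-numbered pairs of fractions. The range was 0.39 to 0.75 in oculomotor and 0.44 to 0.67 in spinal cultures, and these numbers were taken as pairs in the block fits. Across cultures 4 of 6 pairs were over 0.1 and numbers were not taken as pairs. The highest, both in replicate 5, were 0.72 between GFP-positive and 0.63 between GFP-negative fractions. Such correlations do not by themselves show that 2 libraries came from the same culture.

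Depth was estimated from the RPKM steps of 5911 genes with a single transcript, where 95.9% to 97.86% of values under 10 reads lay within 2% of a read from a whole number. Reads per member are rougher, since they assume the longest GENCODE transcript. All 10 members are named. Of the other pathway genes, up to 4 called per list and comparison with the largest differences are named, and the 2 uncalled with the highest mean. For members with a group median of at least 5 RPKM, the 3 genes most like them are named, leaving out unnamed gene models, duplicated names and 25 entries with date-like names. For Etv5, a gene that this rule names is not reported here. The members and lists were chosen with earlier results of these data known. Alternatives were the offset, the filter, rescaling, quantile normalization, sample weights, the replicate sets, blocks, other sample sets and leaving out each library. Leaving out the spinal pair 4, and the motif GGAA, were chosen after seeing the data. Promoters come from RefSeq, and the 8 windows of 6 members were matched by symbol.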

Additional observations from a re-analysis of the deposited data

Results flagged for a closer look

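Of 39 sets of 6 libraries with some spread, 1 for each gene and group, 12 held a library far from the others. For normally distributed values chance gives about 1 in 20, but RPKM near 0 are not so distributed, and a set with 5 libraries at 0 is marked whatever the value of the other one, so the 2 shares are not comparable. In the spinal pair 4, Fgfr1 stood at 14.02 RPKM (GFP-positive) and 12.9 RPKM (GFP-negative), next to 2.93 and 4.72 RPKM in the nearest libraries, and Etv5 at 35.2 and 29.0 RPKM, next to 12.4 and 5.01 RPKM. Fgf17 stood at 0.976 RPKM in the GFP-negative library of that pair. In the oculomotor pair 4, Fgf8 stood at 5.24 RPKM (GFP-positive) and 4.94 RPKM (GFP-negative), next to 0.479 and 2.33 RPKM. Fgf17 stood at 6.88 RPKM in GFP-positive spinal library 2 and at 1.13 RPKM in GFP-positive oculomotor library 2. Fgf8 stood at 0.875 RPKM in GFP-negative spinal library 2 and Fgf10 at 0.085 RPKM in GFP-positive spinal library 6, with the others of its group at 0. Fgfr2 stood at 10.2 RPKM in GFP-negative spinal library 3, the library with the fewest estimated reads, 752529.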

How the results depend on the processing

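Of 1244 refits of single genes under an alternative, 1141 kept direction and side of the threshold, 31 lost a call, 28 gained one and 44 changed sign, and 0 of these 44 were called as reported or under the alternative. The count of members called moved as follows. Between GFP-positive fractions (0 called) it was 1 with an offset of 0.1 RPKM, with sample quality weights and in the fit of all 24 samples, and 0 to 1 with 1 library left out. Over the whole table the offset, the weights and the fit of all 24 called 229, 260 and 342 genes, beside 116 as reported. Between GFP-negative fractions (1 called) it was 2 with the offset of 0.1 RPKM and with the replicate set as covariate, 3 with quantile normalization, with quality weights and without the spinal pair 4, 0 with replicates 1 to 4 only and in a fit of the 12 GFP-negative samples, and 0 to 2 with 1 library left out. Genes called over the whole table between GFP-negative fractions were 213 as reported, 193 with the offset and 367 with the covariate. They were 252 with quantile normalization, 650 with quality weights and 584 without the spinal pair 4. With replicates 1 to 4 only they were 39, and in the fit of the 12 samples 76. A block by replicate number gave 3 members between GFP-negative and 0 between GFP-positive fractions, where numbers are not taken as pairs. That block called 563 and 73 genes. Between oculomotor fractions (4 called) it was 2 after rescaling, 8 with quality weights, 0 with replicates 1 to 4 only, and 2 to 4 with 1 library left out (2 without OMN_pos replicate 5 or 6 or OMN_neg replicate 1). Over the whole table rescaling, weights and replicates 1 to 4 called 1319, 3795 and 476 genes between oculomotor fractions, beside 1364 as reported. The block by culture and number gave 7 members between oculomotor fractions, 1 within spinal cultures and 1 for the interaction, and calls of the latter 2 results held at 0 with 1 library left out. Over the whole table that block called 3644, 649 and 453 genes. The cause of these changes was not tested, other than that fits of fewer samples have fewer degrees of freedom.

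Signs changed for differences near 0: Dusp6 between GFP-positive fractions (0.01 with quantile normalization, 0.07 with quality weights, 0.09 in replicates 1 to 4, and -0.21 to 0.25 with 1 library left out), Fgfr1 there (0.13 without the spinal pair 4, -0.36 to 0.13), Spry2 between oculomotor fractions (0.09 with quality weights, -0.96 to 0.24), and between spinal fractions Etv5 (-0.06 in replicates 1 to 4, -0.27 to 0.68), Fgf15 (0.05 with quality weights, 0.01 without the spinal pair 4, -0.15 to 0.03) and Fgfr1 (-0.58 to 0.09). The interaction changed sign for Fgfr3 (0.19 after rescaling, 0.06 with quantile normalization, 0.12 with quality weights, 0.13 in replicates 1 to 4, 0.11 without the spinal pair 4, and -0.43 to 0.31) and for Spry2 (-0.40 to 0.80). Rescaling moved the median of all genes between GFP-negative fractions from -0.04 to -0.14. Genes called over the whole table ranged with the setting as well, from 476 to 3795 between oculomotor fractions, 39 to 650 between GFP-negative fractions, 30 to 342 between GFP-positive fractions, 1 to 649 between spinal fractions and 10 to 453 for the interaction. Replicates 1 to 4 had at most 4642207 estimated reads, and Fgf8, at no more than 8.7 estimated reads in any library, could not be told apart from a low level where it was listed at 0. Fgf10 and Fgf17 reached 253 and 36.0 estimated reads, but several of their libraries held under 10.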
